A study of Mus musculus with 16 samples.

Results

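Tgif1, Klf10 and Bhlhe40 encode DNA-binding repressors that TGFβ induces, and the 3 genes were taken by symbol from a table of FPKM values (fragments per kilobase of transcript, scaled to the mapped fragments of a library) that holds 12100 genes in 16 libraries. All 3 were found and all 3 passed the filter on low values used below. The cells were embryonic fibroblasts of mice with or without Arkadia, a ubiquitin ligase encoded by Rnf111 that acts in TGFβ signalling, and poly(A) RNA was sequenced with a strand-specific kit. Wild-type cells were Ark+/+ (WT) and deficient cells Ark-/- (null). The 2 remaining lines were Ark-/- cells infected with a retrovirus that drives Arkadia and EGFP from the CAG promoter, in its wild-type form in one line (rvCAG-ArkWT, here rvWT) and with changed SUMO-interacting motifs in the other (rvCAG-Arksim, here sim). Cells were left untreated (0 h) or received TGFβ at 2.5 ng/ml for 1, 4 or 16 h.

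The library names divide the series into a set A, with WT and null at 0, 1, 4 and 16 h, and a set B, with rvWT and sim at 0, 1 and 4 h and null at 0 and 1 h. Each line and time had 1 library, except null at 0 and 1 h with 1 in each set, so the repeats of a time point were the 5 series, namely WT, rvWT, sim and null in either set. The labels do not say whether libraries came from separate cultures, so p-values measure how far these libraries scatter, and that scatter may be technical. No line with an empty retrovirus was analysed here, so effects of infection and of Arkadia in rvWT and sim cannot be told apart. Arkadia status and line likewise cannot be told apart between WT and null, with 1 line each. The level of Rnf111 followed the labels, at 14.5 to 15.1 FPKM in WT, 0.121 to 0.526 in null, 102.5 to 125.8 in rvWT and 55.95 to 62.1 in sim. Of 9 fibroblast markers 7 were in the table, with a summed level of 1728 to 5048 FPKM, while Pdgfra and Dcn had no row. Read depth is unknown, since the values are FPKM without counts.

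TGFβ receptors phosphorylate SMAD2 and SMAD3, which enter the nucleus with SMAD4 and switch on target genes, among them genes whose products restrain the response. TGIF1 is a homeodomain protein that binds SMADs and recruits histone deacetylases and the corepressor CtBP. KLF10, first described as TGFβ-inducible early gene 1 (TIEG1), is a zinc finger protein of the Sp/KLF family that binds GC-rich DNA and recruits Sin3A. BHLHE40 (DEC1, Stra13) is a basic helix-loop-helix repressor that binds E-boxes and opposes CLOCK and BMAL1 in the circadian clock.

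TGFβ raised all 3 genes within 1 h, and they then parted. Klf10 lost most of its rise by 4 h in each of the 4 series sampled then, but stayed above its 0 h level. Tgif1 and Bhlhe40 on average kept their rise to 4 h. All 3 were still raised at 16 h, a time with 1 library each of WT and null. At 1 h the fitted difference on the log2(FPKM + 1) scale was 1.99 for Bhlhe40, 1.82 for Klf10 and 1.12 for Tgif1. Between 1 h and 4 h it was -1.09 for Klf10, 0.01 for Bhlhe40 and 0.01 for Tgif1. The plot of levels by library shows these shapes.

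**Figure D1:**
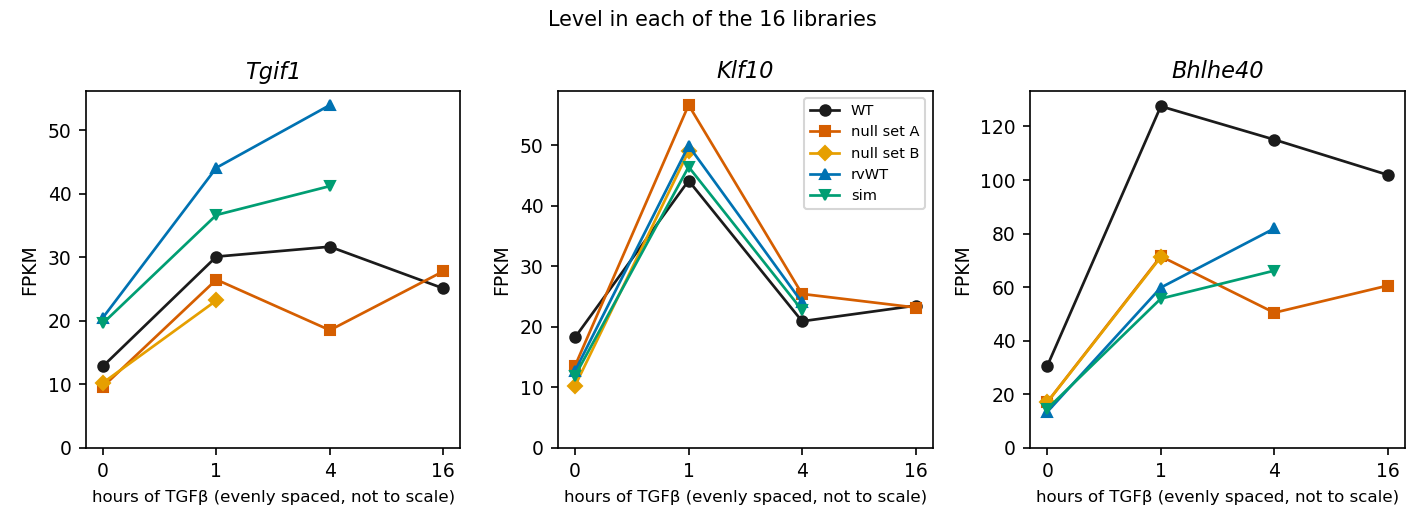
Level in FPKM (vertical axis, from 0) of Tgif1, Klf10 and Bhlhe40 in each of the 16 libraries against hours of TGFβ (evenly spaced positions), 1 point per library, with lines joining a series. Klf10 peaks at 1 h at 44.1 to 56.6 FPKM in all 5 series and lies at 20.9 to 25.4 at 4 h, while Tgif1 and Bhlhe40 at 4 h and 16 h lie above the 0 h level of their own series.

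Tgif1, the SMAD corepressor, stood before TGFβ at 12.9 FPKM in WT, 9.63 and 10.2 in null of sets A and B, 20.5 in rvWT and 19.6 in sim. After 1 h it stood at 30.1 FPKM in WT, 26.5 and 23.2 in null of sets A and B, 44.1 in rvWT and 36.7 in sim. Over the 5 series it thus ranged from 9.63 to 20.5 FPKM at 0 h and from 23.2 to 44.1 FPKM at 1 h. The fitted difference at 1 h was 1.12 ± 0.12 (SE; limma adjusted p = 0.000276), and it was positive in 5 of 5 series, from 0.87 in sim to 1.37 in null of set A. At 4 h Tgif1 stood at 31.7 FPKM in WT, 18.5 in null of set A, 53.99 in rvWT and 41.2 in sim, and at 16 h at 25.1 in WT and 27.8 in null. The 4 h level of null was below the 0 h level of rvWT and sim but above its own 0 h level. The difference from 0 h was 1.12 ± 0.13 at 4 h (SE; limma adjusted p = 0.000219) and 1.15 ± 0.16 at 16 h (SE; limma adjusted p = 0.0012). With the 8 libraries of set A alone these differences were 1.27, 1.06 and 1.18 at 1, 4 and 16 h, with limma adjusted p of 0.201, 0.114 and 0.0584, none of which is under the threshold of 0.05.

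The Tgif1 row of the table is that of transcript variant 2, one of several transcripts with separate starts, and the value may leave other isoforms out. The sequence before that start is shown because it lies directly before the start of the transcript under which the row is listed. Which Tgif1 transcript rose was not tested. RefSeq promoter entries were matched for 1 of the 3 genes, Tgif1, with 5 starts; Klf10 and Bhlhe40 had no entry. The stretch runs from the base before the start of variant 2 up to the nearest exon of another Tgif1 transcript, 99 bases on the minus strand at chr17:70851211-70851309 of GRCm38.p6, a newer build than the mm9 of the deposited values; capitals mark the GC box GGGCGG, the kind of site that Sp and KLF proteins bind.
Tgif1: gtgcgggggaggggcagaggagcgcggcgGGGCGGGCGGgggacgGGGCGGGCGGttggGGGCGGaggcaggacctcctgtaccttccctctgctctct
GGGCGG was matched 5 times in these 99 bases on either strand, with overlapping matches counted, and it is present in the same window of 24.6% of 32851 RefSeq promoters. The SMAD half-site CAGAC and the TGIF core TGTCA, each searched on both strands, had 0 matches here against 18.6% of promoters for either, and the E-box CACGTG had 0 matches against 3.15%. A match is a description of letters and not a binding site.

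Klf10, the TIEG1 repressor, had the transient course. Before TGFβ it stood at 18.3 FPKM in WT, 13.6 and 10.3 in null of sets A and B, 12.7 in rvWT and 11.9 in sim. At 1 h it stood at 44.1 FPKM in WT, 56.6 and 48.98 in null of sets A and B, 49.9 in rvWT and 46.4 in sim. WT was thus the highest library at 0 h and the lowest at 1 h. At 4 h the levels were 20.9 FPKM in WT, 25.4 in null, 24.0 in rvWT and 22.7 in sim, and at 16 h 23.5 in WT and 23.2 in null. The 4 h levels spanned a narrow range, and each lay between the 0 h and 1 h levels of its own series.

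For Klf10 the fitted difference from 0 h was 1.82 ± 0.11 at 1 h (SE; limma adjusted p = 8.67e-06), 0.74 ± 0.12 at 4 h (SE; limma adjusted p = 0.00163) and 0.68 ± 0.16 at 16 h (SE; limma adjusted p = 0.0149). The fall from 1 h to 4 h was -1.09 ± 0.12 (SE; limma adjusted p = 0.000391) and ran from -1.12 in null to -0.998 in sim, in 4 of 4 series. Of the FPKM gained at 1 h, 10.2% was left at 4 h in WT, 27.5% in null of set A, 30.3% in rvWT and 31.3% in sim. From 4 h to 16 h, where 1.87% of genes passed, the change was -0.05 ± 0.16 (SE; limma adjusted p = 0.899), with 0.16 in WT and -0.13 in null, and Tgif1 (0.02) and Bhlhe40 (-0.17) did not pass either. In set A alone the 1 h difference was 1.60 (limma adjusted p = 0.11), the 4 h difference 0.52 (0.264), the 16 h difference 0.54 (0.191) and the change from 1 h to 4 h -1.08 (0.179). The 16 h call was also lost without WT 16 h (limma adjusted p = 0.0624), without null 16 h (0.106) and without null 0 h of set A (0.0507).

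Bhlhe40, the clock-linked repressor, had the largest fitted rise of the 3 at 1 h. Before TGFβ it stood at 30.6 FPKM in WT, 17.1 in null of either set, 13.5 in rvWT and 14.6 in sim. At 1 h it stood at 127.5 FPKM in WT, 71.5 and 71.2 in null of sets A and B, 59.8 in rvWT and 55.7 in sim. WT was the highest library at both times and rvWT and sim the lowest, and the fold over 0 h lay between 3.82 and 4.44 in all 5 series. At 4 h it stood at 115.1 FPKM in WT, 50.5 in null, 81.9 in rvWT and 66.2 in sim, and at 16 h at 101.9 in WT and 60.6 in null. Null had the lowest 4 h level, below its own 1 h level, while rvWT and sim were above theirs.

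The fitted difference of Bhlhe40 from 0 h was 1.99 ± 0.12 at 1 h (SE; limma adjusted p = 8.67e-06), 2.00 ± 0.13 at 4 h (SE; limma adjusted p = 1.37e-05) and 1.83 ± 0.17 at 16 h (SE; limma adjusted p = 0.000106). These calls were kept in set A alone, in set B alone where it had the times, and without any single library. In the fit of 11045 genes, 3.95% were called higher at 1 h, 11.9% at 4 h and 6.84% at 16 h, against 3 of 3 of these genes at each time. By size of the 1 h difference Bhlhe40 was number 19 from the top, Klf10 number 26 and Tgif1 number 98. The 3 responses share the 0 h libraries. The genes were picked as TGFβ-induced, so these counts describe them and lend no independent support.

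Levels per transcript length could be compared between the 3 genes within a library. Bhlhe40 was above Klf10 and Klf10 above Tgif1 in 9 libraries, which include all 5 at 1 h. Tgif1 was above Klf10 and below Bhlhe40 in 5 libraries, all at 4 h or 16 h. In the remaining 2, rvWT and sim at 0 h, Tgif1 was the highest of the 3.

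The step from 1 h to 4 h separated transient from sustained induction. Of 11045 genes, 14.1% were called lower and 8.11% higher at 4 h than at 1 h. Klf10 was among those called lower, and Tgif1 (0.01 ± 0.13 SE, limma adjusted p = 0.969) and Bhlhe40 (0.01 ± 0.13 SE, limma adjusted p = 0.96) did not pass. The 95% interval of the average change was -0.27 to 0.29 for Tgif1 and -0.28 to 0.31 for Bhlhe40, and both signs occur among the series. Among the 436 genes that rose at 1 h, 33% fell from 1 h to 4 h, 13.1% rose further and 53.9% did not pass. Among the 74 that rose by at least 1 on the log2 scale at 1 h, 34 fell, 4 rose further and 36 did not pass. Both steps use the 1 h libraries, so a high value there raises the first and lowers the second.

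**Figure D2:**
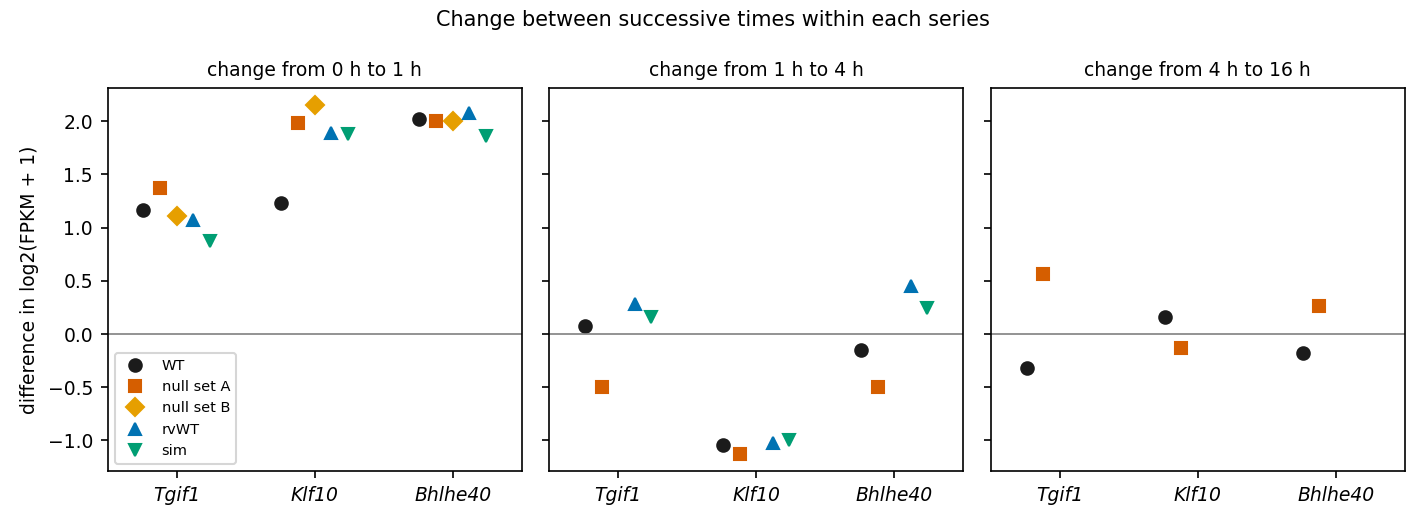
Difference in log2(FPKM + 1) between successive times within each series, 1 point per series, for Tgif1, Klf10 and Bhlhe40. In the step to 4 h all 4 points of Klf10 lie near -1, while for Tgif1 and Bhlhe40 null of set A lies at -0.49 and -0.50 and rvWT and sim lie above 0.

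Within the average, the values of Tgif1 and Bhlhe40 ran differently in the lines sampled, with 1 library of each line at 4 h. The tests of such differences, given below, did not pass. Between 1 h and 4 h Tgif1 changed by -0.49 in null, 0.07 in WT, 0.29 in rvWT and 0.16 in sim. Bhlhe40 changed by -0.50 in null, -0.15 in WT, 0.45 in rvWT and 0.24 in sim. Null was the lowest series for both genes and rvWT the highest. In null 52.7% of the 1 h gain in FPKM was left at 4 h for Tgif1 and 61.3% for Bhlhe40, against 109% and 87.2% in WT, 141.8% and 147.6% in rvWT, and 126.6% and 125.4% in sim. By 16 h Tgif1 of null was back at 107.8% of its 1 h gain and that of WT at 71.0%, while Bhlhe40 was at 79.9% in null and 73.6% in WT. The median change of all genes from 1 h to 4 h was -0.04 in null, -0.02 in WT, -0.07 in rvWT and -0.06 in sim. A median cannot show whether the 4 h null library stood apart in single genes, which was not tested.

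Whether the response depended on Arkadia was tested in a fit with separate responses for the series that carry Arkadia (WT, rvWT, sim) and for null. At 4 h the response of Bhlhe40 was 0.66 ± 0.22 larger in carriers (SE; limma adjusted p = 0.368) and that of Tgif1 0.40 ± 0.15 larger (SE; limma adjusted p = 0.417). That of Klf10 differed by -0.26 ± 0.27 (SE; limma adjusted p = 0.716). None of the 3 passed after adjustment, and 0.0362% of genes passed at 4 h. All rest on 1 null library at 4 h, since set B had none. The difference in the change from 1 h to 4 h, a contrast added after seeing the values, was 0.60 ± 0.15 for Tgif1 (SE; limma adjusted p = 0.547), 0.68 ± 0.22 for Bhlhe40 (SE; limma adjusted p = 0.607) and 0.14 ± 0.27 for Klf10 (SE; limma adjusted p = 0.905). Of all genes 0.0181% passed there. At 1 h the differences between carriers and null were -0.01 ± 0.19 for Bhlhe40, -0.20 ± 0.13 for Tgif1 and -0.40 ± 0.22 for Klf10 (SE; limma adjusted p = 0.999 each), with 0.00905% of genes called. At 16 h, where 1 WT library stands against 1 null library, they were 0.02 ± 0.26, -0.51 ± 0.18 and -0.13 ± 0.32 (SE; limma adjusted p = 0.985, 0.217 and 0.891; 1.62% of genes called).

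WT was also set against the 4 null-derived series. The 1 h rise of Klf10 was 2.42-fold in WT and 3.89-fold to 4.76-fold in the others. The difference in response was -0.74 ± 0.12 at 1 h (SE; limma adjusted p = 0.178), -0.71 ± 0.12 at 4 h (SE; adjusted p = 0.0725) and -0.39 ± 0.14 at 16 h (SE; adjusted p = 0.177). These missed the threshold, with 0.0453%, 0.398% and 3.86% of genes called; the 4 h difference passed without the 4 h library of null (adjusted p = 0.0498). The fall from 1 h to 4 h differed by 0.04 ± 0.12 (SE; limma adjusted p = 0.96; 95% interval -0.24 to 0.31). For Tgif1 and Bhlhe40 the 1 h response of WT differed from the others by 0.06 ± 0.27 and 0.04 ± 0.35 (SE; limma adjusted p = 1.00 each), with 95% intervals of -0.57 to 0.69 and -0.78 to 0.85. Their change from 1 h to 4 h differed by 0.09 ± 0.28 and -0.21 ± 0.36 (SE; limma adjusted p = 0.958 and 0.919), with 0.0453% of genes called. At 4 h and 16 h the response of WT differed by 0.15 and -0.50 for Tgif1 and by -0.17 and -0.24 for Bhlhe40, and none passed.

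Levels over all times differed between lines for Bhlhe40 and Tgif1, while Klf10 passed in no line comparison. Bhlhe40 was higher in WT than in null at each of the 4 times, by 0.89 ± 0.08 on the log2 scale (SE; limma adjusted p = 0.000457). Tgif1 differed by 0.29 ± 0.14 (SE; limma adjusted p = 0.128), passing with 0.43 when the 16 h library of either line was left out (adjusted p = 0.0303 without WT 16 h and 0.0304 without null 16 h). Klf10 differed by -0.05 ± 0.13 (SE; limma adjusted p = 0.754; 95% interval -0.39 to 0.29). In this comparison 67.5% of 10976 genes passed, 37.4% higher and 30.1% lower in WT, so 1 of 3 genes higher is near the background. Marker sums differed as well. The summed level of 7 fibroblast markers was 1728 to 2249 FPKM in WT and 2525 to 3755 in null. That of 3 epithelial markers was 3.73 to 4.58 and 20.3 to 39.3, with Epcam and Cdh1 without a row. The sum of 2 endothelial markers was 0.248 to 0.953 FPKM in WT and 5.87 to 10.8 in null (Pecam1 and Cdh5 had no row). That of 2 haematopoietic markers was 6.11 to 7.68 and 11.4 to 15.4 (Ptprc and Itgam had no row). These 2 went opposite ways, with Cd14 lower (-1.70) and Cd68 higher (0.96) in WT on the log2 scale. The null ranges cover both sets. The part of cell makeup in these differences was not tested, and in bulk RNA fewer cells of a type and less RNA per cell cannot be told apart.

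In set B the retroviral lines had more Tgif1 than null. The difference was 0.95 ± 0.09 in rvWT (SE; limma adjusted p = 0.00105) and 0.72 ± 0.09 in sim (SE; limma adjusted p = 0.00301), and both were present before TGFβ, where rvWT at 20.5 FPKM and sim at 19.6 compare with 10.2 in null. Bhlhe40 was at -0.23 ± 0.10 in rvWT (SE; limma adjusted p = 0.113) and lower in sim at -0.33 ± 0.10 (SE; limma adjusted p = 0.0479). The call in sim was lost under 5 other settings and without null 0 h, null 1 h, rvWT 0 h, rvWT 1 h or sim 1 h of set B (limma adjusted p = 0.055 to 0.215), and that in rvWT was gained, at -0.28, without rvWT 4 h (0.0348) or sim 4 h (0.0344). Klf10 was at 0.15 ± 0.08 in rvWT and 0.06 ± 0.08 in sim (SE; limma adjusted p = 0.181 and 0.558). Of 10958 genes 38.6% passed in rvWT (16% higher and 22.6% lower) and 34.7% in sim (13.9% higher and 20.8% lower), and both comparisons share the null libraries, which end at 1 h. Between rvWT and sim, where 0.493% of genes passed, Tgif1 differed by 0.23 ± 0.07, Bhlhe40 by 0.10 ± 0.08 and Klf10 by 0.09 ± 0.07 (SE; limma adjusted p = 0.232, 0.568 and 0.532). The 95% intervals of these differences were 0.05 to 0.42, -0.11 to 0.31 and -0.08 to 0.26. The fibroblast marker sum was 4448 to 5048 FPKM in rvWT and 4055 to 4443 in sim, against 2525 to 3755 in null of both sets. The lowest and the highest of the other marker sums lay below those of null: 8.72 to 17.6 FPKM in rvWT and 10.7 to 21.0 in sim against 20.3 to 39.3 for epithelial markers, 2.76 to 4.28 and 3.85 to 6.67 against 5.87 to 10.8 for endothelial markers, and 5.75 to 7.39 and 6.89 to 7.79 against 11.4 to 15.4 for haematopoietic markers. The ranges of sim and null overlap for epithelial and endothelial markers, and the part of these markers in the differences was not tested.

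The null line, sampled in both sets at 0 and 1 h, shows how far the sets differ. Set B minus set A was -0.003 at 0 h and -0.006 at 1 h for Bhlhe40, 0.08 and -0.18 for Tgif1, and -0.37 and -0.21 for Klf10. The median absolute difference over all genes was 0.219 and 0.215.

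Each gene has a close relative with the same kind of DNA-binding domain. Of these 3, Tgif2 and Bhlhe41 rose at 1 h and 0 passed at 4 h or 16 h, adjusted or at an unadjusted limma p under 0.05. At 1 h 3.95% of all genes were called higher. Tgif2, the second TGIF protein, rose at 1 h by 0.38 ± 0.05 (SE; limma adjusted p = 0.00117) and fell by 0.36 from 1 h to 4 h (limma adjusted p = 0.00165). Its range over the libraries was 6.62 to 11.6 FPKM at 0 h, 7.99 to 17.1 at 1 h and 6.39 to 12.2 at 4 h, WT being the highest at each time. Bhlhe41 (DEC2), the paralog of Bhlhe40, rose at 1 h by 0.88 ± 0.16 (SE; limma adjusted p = 0.00907) and fell from 1 h to 4 h by 0.74 (limma adjusted p = 0.0165). It was far less abundant than Bhlhe40, at 0.353 FPKM in WT and 1.47 to 2.48 in the other lines at 0 h, and 0.819 and 2.83 to 9.33 at 1 h. Klf11 (TIEG2) stood at 0.839 to 3.60 FPKM at 0 h and 1.245 to 2.98 at 1 h, a difference of 0.09 ± 0.11 (SE; limma adjusted p = 0.745). Between WT and null Tgif2 (0.75 ± 0.06) and Klf11 (0.92 ± 0.16) were higher and Bhlhe41 (-0.73 ± 0.14) lower in WT (SE; limma adjusted p = 0.000274, 0.00412 and 0.0057). The 2 DEC genes thus went in opposite directions. In this comparison 67.5% of 10976 genes passed, 37.4% higher and 30.1% lower in WT, so a call in either direction is common.

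**Figure D3:**
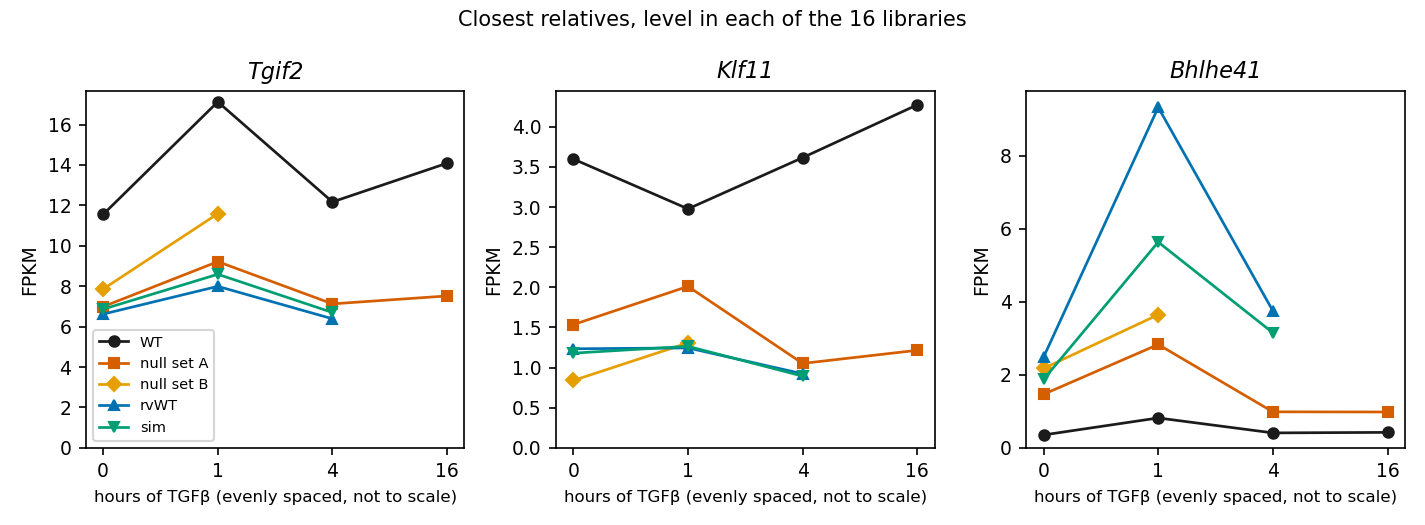
Level in FPKM (vertical axis, from 0) of Tgif2, Klf11 and Bhlhe41 in each of the 16 libraries against hours of TGFβ (evenly spaced positions), 1 point per library, with lines joining a series. Tgif2 and Bhlhe41 are highest at 1 h in every series, WT lies above the other lines for Tgif2 and Klf11 and below them for Bhlhe41.

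Other inhibitors of transcription linked to TGFβ and BMP signals, a list of 20 genes of which 19 were tested, gave 11 that rose at 1 h, 9 of which fell from 1 h to 4 h as Klf10 did, while the other 2 did not pass in that step. Snai2 fell at 1 h by 0.63 and the remaining 7 did not pass, beside 3.95% of all genes higher and 2.01% lower. From 1 h to 4 h 11 of the 19 fell, 5 did not pass and Zeb1 (0.29), Maff (0.50) and Ets2 (0.33) rose, beside 14.1% lower and 8.11% higher. These genes and those named in the next paragraphs beyond the 3 with the smallest p at 1 h were chosen after their values were seen. The median change from 1 h to 4 h was -0.63 in the list and -0.05 over all genes. Snai1, a zinc finger repressor of epithelial genes, rose by 2.95 ± 0.09 at 1 h (SE; limma adjusted p = 5.71e-08), with a median of 12.6 FPKM at 0 h and 106.1 at 1 h, and changed by -1.13 from 1 h to 4 h. Smad7, which blocks the TGFβ receptor, rose by 2.04 ± 0.07 (SE; limma adjusted p = 9.44e-08) and then changed by -0.89. Smad6, the inhibitor of BMP signals, rose by 1.94 ± 0.14 (SE; limma adjusted p = 2.54e-05) and then changed by -2.37, to 4.53 to 7.11 FPKM at 4 h against 6.98 to 13.8 at 0 h.

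Early TGFβ targets of other kinds, 18 tested of 20 listed, gave 10 that rose at 1 h, beside 3.95% of all genes. From 1 h to 4 h 1 of these fell, Rasl11b at -1.23, 3 rose further and 6 did not pass, which is where Tgif1 and Bhlhe40 lay. At 4 h 16 of the 18 were above 0 h, 2 did not pass and 0 were lower in limma (0 also at an unadjusted p under 0.05), beside 11.9% of all genes higher and 27.1% lower. The median change from 1 h to 4 h was 0.43. Pmepa1, a membrane adaptor that sequesters SMADs, rose by 1.58 ± 0.07 at 1 h (SE; limma adjusted p = 1.14e-06) and by a further 0.73 from 1 h to 4 h. Junb, an AP-1 subunit, rose by 2.52 ± 0.15 (SE; limma adjusted p = 5.75e-06) and then changed by -0.40 ± 0.16 (limma adjusted p = 0.0956). In null of set A Pmepa1 stood at 27.0 FPKM at 1 h and 41.4 at 4 h, and it was higher at 4 h in WT, rvWT and sim too. Junb stood in null of set A at 89.5 FPKM at 1 h and 66.9 at 4 h, and it was lower at 4 h in WT, rvWT and sim too.

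**Figure D4:**
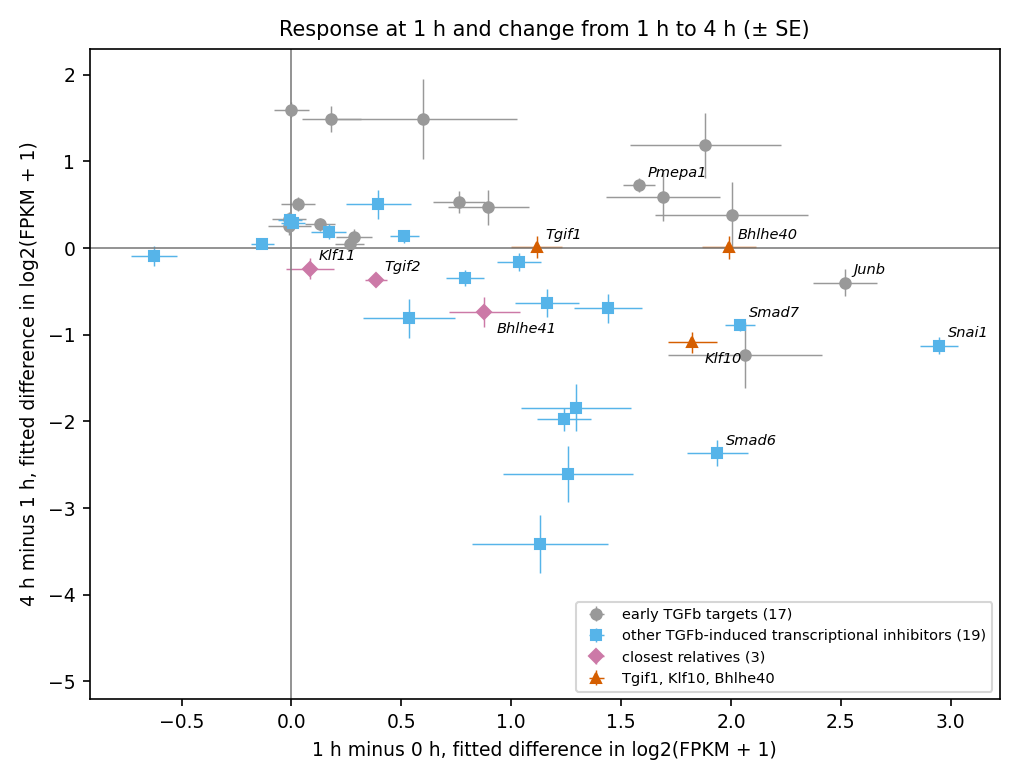
Fitted difference at 1 h (horizontal axis) against fitted change from 1 h to 4 h (vertical axis), both on the log2(FPKM + 1) scale with SE bars, for Tgif1, Klf10 and Bhlhe40, their 3 relatives, 19 other inhibitors and 17 of the 18 early targets tested. Tgif1 and Bhlhe40 lie at 0.01 on the vertical axis and Klf10 at -1.09, beside Smad7 at -0.89.

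Corepressors and binding partners of the 3 proteins made up a list of 16 tested genes, of which 14 did not pass at 1 h. Of all genes 3.95% were called higher and 2.01% lower at that time. Smad3 rose by 0.31 ± 0.05 at 1 h (SE; limma adjusted p = 0.00739), and Cited2, a coactivator-binding protein, fell by 0.94 (limma adjusted p = 0.00197), from a median of 52.3 FPKM to 27.7. Sin3a, the scaffold that KLF10 recruits, was at -0.19 ± 0.06 at 1 h (SE; limma adjusted p = 0.102). At 4 h the corepressor Ctbp2 (0.22) was higher and Sin3a (-0.28) and the deacetylase Hdac2 (-0.12) lower than at 0 h.

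Clock genes and retinoid response genes, some of which BHLHE40 or TGIF1 is known to act on, were followed as lists. Hypoxia genes and genes that TGFβ is known to lower were followed as further lists. Of all genes 3.95% were called higher and 2.01% lower at 1 h, and 11.9% higher and 27.1% lower at 4 h. Of 13 clock genes 11 did not pass at 1 h. Per2 rose by 0.51 ± 0.08 at 1 h (SE; limma adjusted p = 0.00338), from a median of 1.69 FPKM to 2.83, and Cry2 fell by 0.31 (limma adjusted p = 0.0308). Csnk1e, a clock kinase, was at 0.16 ± 0.05 (SE; limma adjusted p = 0.0749). At 4 h Arntl (0.50), Cry1 (0.41), Per2 (0.40) and Csnk1e (0.27) were higher than at 0 h, and Dbp (-1.31), Nr1d2 (-0.49) and Rora (-0.44) lower. Of 9 retinoid response genes 0 passed at 1 h in limma after adjustment and 2 at an unadjusted p under 0.05, both higher, with Tgm2 at 0.33 (limma adjusted p = 0.0655) and Cyp26b1 at 0.83 (0.238). At 4 h Aldh1a3 (1.02) and Tgm2 (0.50) were higher than at 0 h, and Dhrs3 (-1.09) and Aldh1a1 (-0.55) lower. Of 18 hypoxia genes, a group that like Bhlhe40 responds to HIF1, 3 rose at 1 h in limma and 0 fell (2 at an unadjusted p under 0.05): Ddit4 by 0.96 ± 0.08, Hk2 by 0.93 ± 0.15 and Vegfa by 1.43 ± 0.25 (SE; limma adjusted p = 7.62e-05, 0.00335 and 0.00591). At 4 h these 3 and Slc2a1 (0.36) were higher than at 0 h and 6 lower, from -1.42 for Adm to -0.16 for Pgk1. Among 9 genes that TGFβ is known to lower, 2 rose at 1 h, Id1 (1.3 ± 0.25) and Id3 (1.26 ± 0.30), which both also stand in the list of inhibitors (SE; limma adjusted p = 0.0115 and 0.0323). Id2 was at 1.13 ± 0.31 (SE; limma adjusted p = 0.0605). The rise was not seen in WT, where from 0 h to 1 h Id1 went from 130.9 to 124.3 FPKM, Id3 from 168.9 to 173.1 and Id2 from 52.8 to 41.3. In the 4 null-derived series all 3 were higher at 1 h, as in rvWT with Id1 at 70.0 and 268.4 FPKM, Id3 at 224.5 and 690.1 and Id2 at 24.5 and 83.97. The difference in 1 h response between WT and those series was -1.71 for Id1, -1.53 for Id3 and -1.85 for Id2 and did not pass (limma adjusted p = 0.274, 0.326 and 0.227). At 4 h Myc was higher (1.12) and Id2 (-2.28), Id3 (-1.35) and Ccna2 (-0.47) were lower than at 0 h.

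Genes with the most similar course were found by Pearson correlation over the 16 libraries after centring each series on its mean, among 8286 other genes with a mean of at least 5 FPKM. These libraries share the TGFβ time course, so many induced genes reach high values. Tgif1 was closest to Bhlhe40 (r = 0.980), then to the ubiquitin ligase Rnf19b (0.969), the growth factor Pdgfa (0.967) and Itprip (0.954). Bhlhe40 was closest to Rnf19b (r = 0.986), Pdgfa (0.981), Tgif1 (0.980), Itprip (0.975) and Junb (0.970), so 3 genes beside the pair itself stood on both lists. Klf10 was closest to the kinase Pim1 (r = 0.976), the ETS repressor Erf (0.975), Csrnp1 (0.967), the Notch modifier Lfng (0.964) and 1700017B05Rik (0.964), and none of these 5 was among the genes closest to Tgif1 or Bhlhe40. The 5 genes closest to Klf10 changed by -0.85 (Pim1) to -0.55 (1700017B05Rik) from 1 h to 4 h. Klf10 itself had r = 0.744 with Tgif1 and r = 0.788 with Bhlhe40.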

How the data were processed

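The authors deposited 1 table of FPKM values for 16 libraries and 12100 genes, each under 1 symbol and 1 RefSeq accession. The submitters' processing notes name build mm9 and, without roles, Cufflinks 2.2.1, STAR 2.3.0e, CASAVA 1.8.2 and SAMtools; annotation and filter are not given. Total FPKM per library ran from 397019 to 481970, and depth is unknown. Values were analysed as log2(FPKM + 1), which understates changes of low genes, for genes whose mean in the fitted libraries reached 1 FPKM, with limma 3.58.1 (limma-trend, R 4.3.3) and Benjamini-Hochberg adjustment over all genes tested (threshold 0.05). Responses were fitted over 16 libraries with the 5 series as a block, WT against null over set A and the lines of set B over set B with time as a factor, and response differences with added terms for WT or for carriers. The fits were tested on simulated data. The 3 genes and all lists were chosen with earlier results of these data known. Named genes were the 3 genes, Rnf111, their relatives, from each list the 3 genes of smallest 1 h p, and the 5 genes most like each; a few of these are not reported here. Alternatives were 2 other pseudocounts, 2 other filters, 3 scalings, limma without trend or with robust variances, single sets, other groupings and each library left out.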

Additional observations from a re-analysis of the deposited data

Results flagged for a closer look

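Some genes moved up in 1 line and down in another, with 1 series in each, so that the pair itself was not tested; 8 such pairs set a line against null of set A and 2 set a retroviral line against WT. For the change of Tgif1 from 1 h to 4 h, WT, rvWT and sim went up and null of set A went down, and they exceeded it by 0.56, 0.78 and 0.66 on the log2(FPKM + 1) scale. For Bhlhe40 over the same step rvWT and sim went up and null went down, with differences of 0.94 and 0.74. From 1 h to 4 h Bhlhe40 also went down in WT and up in rvWT and sim, which exceeded WT by 0.59 and 0.39. The 5 differences from null share the 1 h and 4 h libraries of null, and the joint test of carriers against null did not pass for either gene (limma adjusted p = 0.547 for Tgif1 and 0.607 for Bhlhe40).

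From 4 h to 16 h, where only WT and null of set A were sampled, WT minus null was -0.88 for Tgif1, -0.43 for Bhlhe40 and 0.29 for Klf10. For the first 2 genes WT went down and null went up, and for Klf10 the reverse. No group had the 4 or more libraries that a check for outlying values needs.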

How the results depend on the processing

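With the exceptions given here and in the report, the 1 h, 4 h and 16 h rises of the 3 genes and the fall of Klf10 from 1 h to 4 h kept their direction and their side of the threshold; of all alternatives for the 3 genes 1209 kept both, 56 turned the sign, 20 lost a call and 5 gained one. The labels carry no replicate numbers by which single libraries could be paired. The fits of the responses compared times within series, and those of the lines held time as a term. Depth is unknown, so no counting error can be given. Unless a value below shows the cause, the cause was not tested.

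Set A and set B hold 8 libraries each, and set B alone gave 461 genes at 1 h and 4266 at 4 h. Set A alone gave 12 genes at 1 h against 658, 16 at 4 h against 4307, 245 at 16 h against 2139, 9 from 1 h to 4 h against 2453 and 6 from 4 h to 16 h against 207. Tgif1 was then at 1.27, 1.06 and 1.18 at 1, 4 and 16 h and Klf10 at 1.60, 0.52 and 0.54, without a call. From 1 h to 4 h it gave -1.08 for Klf10 (no call), -0.21 for Tgif1 and -0.32 for Bhlhe40, and from 4 h to 16 h 0.0164 for Klf10 and 0.0427 for Bhlhe40, the last 4 with a turned sign.

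Scaling to an equal coding total turned the change from 1 h to 4 h to -0.00528 for Tgif1 and -0.00217 for Bhlhe40, and WT minus null of Klf10 to 0.0122; quantile normalization gave -0.00366 for Bhlhe40. The coding total moved the median of all genes to -0.10 at 4 h and to 0.13 for WT minus null. The sim minus null call of Bhlhe40 was lost with a pseudocount of 5 (-0.30), median-ratio scaling (-0.28), the coding total (-0.32), quantile normalization (-0.28) and no trend (-0.33). Robust variances gave 93 genes for rvWT minus sim against 54.

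For WT minus null-derived, a pseudocount of 0.1 gave 11 genes at 1 h against 5. Leaving out rvWT and sim gave 3 at 1 h, 10 at 4 h against 44 and 7 at 16 h against 426, with Tgif1 at -0.0712 at 1 h and Bhlhe40 at 0.37 at 4 h. For the change from 1 h to 4 h the count of 5 became 13 (pseudocount 0.1), 21 (pseudocount 5), 8 (coding total, quantile or robust) and 3 (without rvWT and sim), Klf10 was at -0.00629 (median-ratio) and -0.00759 (quantile) and Bhlhe40 at 0.35 (without rvWT and sim). For carriers minus null at 1 h, quantile normalization put Bhlhe40 at 0.0143, and sim counted with null put Tgif1 at 0.00233 and Bhlhe40 at 0.0927 with 3 genes called against 1, or 2 without WT. At 16 h Bhlhe40 was at -0.0225 (median-ratio), -0.0441 (coding total), -0.00658 (quantile) and -0.0369 (sim counted with null). The added change from 1 h to 4 h had 1 gene against 2 with a pseudocount of 0.1, a minimum of 5 FPKM, the coding total or sim counted with null.

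Leaving out 1 library at a time, ranges run from the lowest to the highest value. Counts of called genes ran from 400 (without null 1 h of set B) to 815 (rvWT 4 h) at 1 h, 2658 (sim 4 h) to 4779 (WT 16 h) at 4 h, 640 (null 16 h) to 3026 (WT 16 h) at 16 h, 1105 (sim 4 h) to 3166 (WT 16 h) from 1 h to 4 h and 119 (sim 4 h) to 657 (WT 16 h) from 4 h to 16 h. For lines they ran from 1946 (null 0 h) to 4249 (sim 4 h) in rvWT minus null, 1581 (null 0 h) to 3854 (rvWT 4 h) in sim minus null and 1 (sim 0 h) to 54 in rvWT minus sim. For WT minus null-derived they ran from 2 (rvWT 1 h) to 7 (null 4 h) at 1 h, 11 (rvWT 1 h) to 204 (null 4 h) at 4 h, 174 (null 0 h of set A) to 749 (null 4 h) at 16 h and 3 (null 1 h of set A) to 91 (null 4 h) for the change. For carriers minus null they ran from 1 (WT 0 h) to 4 (sim 0 h) at 1 h, 2 (WT 0 h) to 7 (sim 0 h) at 4 h, 5 (null 0 h of set A) to 708 (WT 4 h) at 16 h and 1 (WT 0 h) to 6 (WT 4 h) for the change.

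For single genes, Klf10 at 16 h ran from 0.64 to 0.88. From 1 h to 4 h Tgif1 ran from -0.0766 (rvWT 4 h) to 0.16 (null 4 h) and Bhlhe40 from -0.15 (rvWT 4 h) to 0.18 (null 4 h), and from 4 h to 16 h Tgif1 from -0.26 to 0.31 and Klf10 from -0.16 to 0.000658. Between WT and null Tgif1 ran from 0.14 to 0.43 and Klf10 from -0.20 to 0.0497. Bhlhe40 ran from -0.28 to -0.13 in rvWT minus null, from -0.44 to -0.28 in sim minus null and from -0.00351 to 0.19 in rvWT minus sim, and Klf10 in sim minus null from -0.0694 to 0.20. For WT minus null-derived, Tgif1 ran from -0.00722 to 0.19 at 1 h, -0.0229 to 0.29 at 4 h and -0.0867 to 0.23 for the change, Bhlhe40 from -0.0516 to 0.14, -0.45 to 0.0424 and -0.48 to 0.0045, and Klf10 at 4 h from -0.73 to -0.68. For carriers minus null, Bhlhe40 ran from -0.12 to 0.0492 at 1 h and -0.0821 to 0.13 at 16 h, and Klf10 from -0.51 (rvWT 0 h) to -0.18 (WT 0 h) at 1 h, -0.38 (null 0 h of set A) to -0.0334 (WT 0 h) at 4 h and -0.25 to 0.24 at 16 h. Contrasts that need a left-out library, such as WT minus null-derived at 1 h without WT 0 h, could not be fitted.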

Other observations

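Clock genes, some of which BHLHE40 and BHLHE41 are known to repress, differed between lines, and the genes named here were chosen after their values were seen. Of 13 tested, 8 were lower in WT than in null and the other 5 did not pass, where 30.1% of all genes were called lower. They were the nuclear receptors Rora (-1.28 ± 0.16), Nr1d1 (-1.22 ± 0.14) and Nr1d2 (-1.19 ± 0.13), the activators Arntl (-1.11 ± 0.10) and Clock (-0.52 ± 0.07), the output factors Tef (-1.09 ± 0.18) and Dbp (-1.01 ± 0.21), and Per3 (-0.75 ± 0.12) (SE; limma adjusted p = 0.000389 to 0.00835). In these cells Bhlhe40 was higher and Bhlhe41 lower in WT, and no relation between them and the clock genes was tested.

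In set B, where Bhlhe40 was at -0.23 in rvWT and -0.33 in sim against null, rvWT had 2 of the 13 clock genes higher and 7 lower, and sim 2 and 8, beside 16% of all genes higher and 22.6% lower in rvWT and 13.9% and 20.8% in sim. Arntl (0.56 and 0.55) and Cry1 (0.48 and 0.32) were higher in both lines, and Rora (-0.96 and -0.63), Nr1d1 (-0.69 and -0.68), Dbp (-0.52 and -0.48), Cry2 (-0.47 and -0.48), Per2 (-0.42 and -0.46), Per3 (-0.38 and -0.31) and Csnk1e (-0.60 and -0.60) lower, with Per1 lower in sim (-1.57) and not past the threshold in rvWT (-0.23). Both comparisons share the null libraries. Arntl thus lay on the other side of null in rvWT and sim than in WT, each within its own set.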
